A study of Mus musculus with 68 samples.

Results

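The genes described here are 33 genes of the epithelial cell state in the mouse uterus: keratins, adhesion and tight junction components, surface proteases with their inhibitors, and transcription and splicing regulators of epithelia. They were taken as a list of symbols, chosen with earlier results of these data known. Each was measured by the probe set annotated to that symbol alone. All 33 were found, each with exactly 1 probe set, among 30142 genes with a symbol on the array. They were grouped by role into 8 regulators, 4 keratins, 5 adhesion and desmosome genes, 9 tight junction genes and 7 genes of surface proteolysis, apical membrane and membrane traffic.

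The study asked how the uterus responds at the RNA level to the oestrogen oestradiol (E2) and to the growth factor IGF1, and whether oestrogen receptor alpha, the product of Esr1, is needed. Uterine RNA of ovariectomized mice was hybridised to 68 1-colour whole-transcript arrays. Mice received saline vehicle, an injection of 250 ng E2 or IGF1. Uteri were collected after 2 h or 24 h, except that vehicle uteri were collected at 24 h only, so the 2 h comparisons use a 24 h control. IGF1 was given by injection or by osmotic pump, and the labels do not say which mice had which. There were 5 kinds of mice: C57Bl6 wild types (14 arrays), Ex3aERKO mice, which are null for Esr1 (11 arrays), their wild-type littermates (14 arrays), ERaUtcKO mice, in which a floxed Esr1 is removed by PgrCre (15 arrays), and their wild-type littermates (14 arrays). Cre from the progesterone receptor locus acts where that receptor is expressed, so other cells keep Esr1. Each of the 25 groups had 3 arrays, or 2 where the submitters had left out 1 as an outlier by principal component analysis; 18 groups had 3 and 7 had 2. The labels give no ages.

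Values are the authors' log2 intensities, so a difference of 1 is a doubling. The 3 sets of mice (C57Bl6, Ex3aERKO with littermates, ERaUtcKO with littermates) differed in overall level: array medians were 6.43 to 6.60, 5.82 to 6.15 and 6.26 to 6.62. Knockout levels were therefore compared within a set, and differences over the 42 wild-type arrays were fitted with the set as a term. Ranges and medians over all wild types pool the 3 sets, so they can depart from the fitted differences. A level of one gene says nothing against that of another, since probes differ. Esr1, the targeted gene, was lower in all knockout arrays than in all littermate arrays. Vehicle levels were 10.29 and 10.08 in Ex3aERKO against 12.43 and 12.73 in littermates, and 11.09, 11.10 and 10.86 in ERaUtcKO against 12.17, 12.25 and 12.24. Whether its probes lie in the deleted exon was not tested. Liver transcripts were present in part of the libraries: Alb reached 15.66 to 17.53 in C57Bl6 vehicle uteri and stayed between 5.17 and 6.03 in all arrays of the Ex3aERKO set. In the ERaUtcKO set it was at 10.99 to 15.27 in knockout vehicle uteri and 8.68 to 13.3 in littermate vehicle uteri. After 2 h of IGF1 it was at 10.59 to 17.32 in ERaUtcKO uteri.

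As background, uterine luminal and glandular epithelium is a simple epithelium held together by E-cadherin junctions, desmosomes and tight junctions, with a cytoskeleton of simple-type keratins. Oestradiol makes this epithelium proliferate and grow tall within a day, and part of that response is relayed from the stroma by growth factors including IGF1. ETS-family factors such as ELF3 and EHF, grainyhead-like factors such as GRHL2, and the splicing factor ESRP1 keep cells epithelial, while ZEB and SNAIL factors repress epithelial genes through E-box sequences. In whole uterus, fewer cells of a type and less RNA per cell cannot be told apart, and the same holds for increases.

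Promoter windows running from 250 bases before to 50 bases after the annotated start (RefSeq, GRCm38.p6) were available for 25 of the 33 genes, in 33 windows. Of 4 motifs searched on both strands, the E-box CACCTG, the sequence ZEB and SNAIL factors bind, was in 22 of 33 windows (66.7%), against 20.2% of all 32851 windows of this length. It was present for 19 of the 25 genes, against 22.6% of all genes with a window. Windows of the same gene can overlap, so a shared site was counted again for Marveld2 and Ocln. The full oestrogen response element, GGTCA and TGACC with 3 bases of any kind between, was in none of the 33 windows and in 0.07% of all windows. The grainyhead motif AACCGGTT was in none either, against 0.146% of all windows, and the ETS motif CCGGAAGT was in 3 (9.09%), those of Cldn7, Lsr and Spint1, against 3.89%. The windows of these genes were also richer in G and C, with a median of 60.7% against 52.7%, and the E-box shares were not adjusted for that. The windows below belong to the genes on which the results turn. These are the largest riser, the neighbouring keratin and claudin pairs, the claudin that fell most, and the regulator that moved most in the knockouts. Capitals mark the E-box in either orientation, each window reads 5′ to 3′ along the gene, and positions count from the annotated start.
Elf3 (chr1:135258423-135258722, minus strand; E-box at -140): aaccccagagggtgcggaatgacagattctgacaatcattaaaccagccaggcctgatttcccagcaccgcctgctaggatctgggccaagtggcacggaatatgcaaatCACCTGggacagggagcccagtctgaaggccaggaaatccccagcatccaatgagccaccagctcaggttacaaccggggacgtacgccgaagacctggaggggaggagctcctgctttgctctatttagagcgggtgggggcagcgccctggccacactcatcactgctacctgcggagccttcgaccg
Krt8 (chr15:102004293-102004592, minus strand; E-box at -111): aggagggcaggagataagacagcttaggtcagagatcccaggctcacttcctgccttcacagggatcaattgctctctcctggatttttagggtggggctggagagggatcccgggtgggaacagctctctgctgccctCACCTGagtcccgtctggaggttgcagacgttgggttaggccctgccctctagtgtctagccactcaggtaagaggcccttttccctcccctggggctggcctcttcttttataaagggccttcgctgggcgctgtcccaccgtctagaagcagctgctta
Krt18 (chr15:102027966-102028265, plus strand; E-box at -214): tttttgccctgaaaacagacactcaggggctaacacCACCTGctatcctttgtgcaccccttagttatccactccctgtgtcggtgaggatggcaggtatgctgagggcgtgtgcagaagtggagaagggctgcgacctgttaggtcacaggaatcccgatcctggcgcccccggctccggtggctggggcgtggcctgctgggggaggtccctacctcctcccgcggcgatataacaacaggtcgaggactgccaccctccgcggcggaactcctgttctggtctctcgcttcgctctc
Cldn3 (chr5:134985964-134986263, plus strand; E-box at 31): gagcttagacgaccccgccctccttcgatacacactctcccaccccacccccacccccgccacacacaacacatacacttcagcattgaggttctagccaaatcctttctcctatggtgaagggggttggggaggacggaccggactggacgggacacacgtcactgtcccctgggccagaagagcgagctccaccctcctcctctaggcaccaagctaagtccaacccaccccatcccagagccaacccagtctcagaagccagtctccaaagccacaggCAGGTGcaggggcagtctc
Cldn4 (chr5:134946885-134947184, minus strand; E-boxes at -14 and 11): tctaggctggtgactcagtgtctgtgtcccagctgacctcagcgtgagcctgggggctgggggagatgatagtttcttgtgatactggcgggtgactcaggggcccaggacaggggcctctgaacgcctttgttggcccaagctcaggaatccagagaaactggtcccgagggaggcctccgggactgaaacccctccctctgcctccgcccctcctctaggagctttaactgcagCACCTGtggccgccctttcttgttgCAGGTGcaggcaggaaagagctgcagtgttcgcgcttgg
Tfcp2l1 (chr1:118627695-118627994, plus strand; E-boxes at -120 and -40): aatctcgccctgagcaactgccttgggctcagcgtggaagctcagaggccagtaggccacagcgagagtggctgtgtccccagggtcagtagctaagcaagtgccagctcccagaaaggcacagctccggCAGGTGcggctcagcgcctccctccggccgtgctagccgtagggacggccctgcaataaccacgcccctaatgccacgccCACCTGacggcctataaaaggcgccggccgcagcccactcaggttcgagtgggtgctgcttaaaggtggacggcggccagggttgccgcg
Cldn1 (chr16:26371790-26372089, minus strand; none of the 4 motifs): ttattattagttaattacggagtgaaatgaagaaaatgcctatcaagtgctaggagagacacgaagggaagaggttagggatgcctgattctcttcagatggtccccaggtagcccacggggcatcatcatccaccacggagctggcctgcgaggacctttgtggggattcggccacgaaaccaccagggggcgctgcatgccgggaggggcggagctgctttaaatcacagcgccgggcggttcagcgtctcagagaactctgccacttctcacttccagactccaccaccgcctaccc
Krt8 and Krt18, Cldn3 and Cldn4, and Ocln and Marveld2 are neighbours on chromosomes 15, 5 and 13, with 0 protein-coding genes between the members of each pair.

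Oestradiol raised nearly the whole list within 24 h in wild-type uteri. Of the 33 genes, 29 were higher and 2 lower than in vehicle (9 and 8 arrays; limma, adjusted p under 0.05), where 24.5% and 31.7% of all genes tested were called higher and lower. The median difference of the 33 was 0.96, against -0.07 for all genes. The list was chosen with earlier results of these data known, so these shares are a description and not a test. Elf3 rose the furthest, followed by Krt8 and Rab25, while Cldn1 and Cldn10 fell. The rises were seen in every role: 6 of 8 regulators, 4 of 4 keratins, 5 of 5 adhesion and desmosome genes, 7 of 9 tight junction genes and 7 of 7 genes of proteolysis, apical membrane and traffic. Foxa2, a regulator of uterine glands, differed by 0.03 ± 0.06 (SE) and Tfcp2l1 by -0.34 ± 0.19 over all wild types, and neither was called there.

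**Figure D1:**
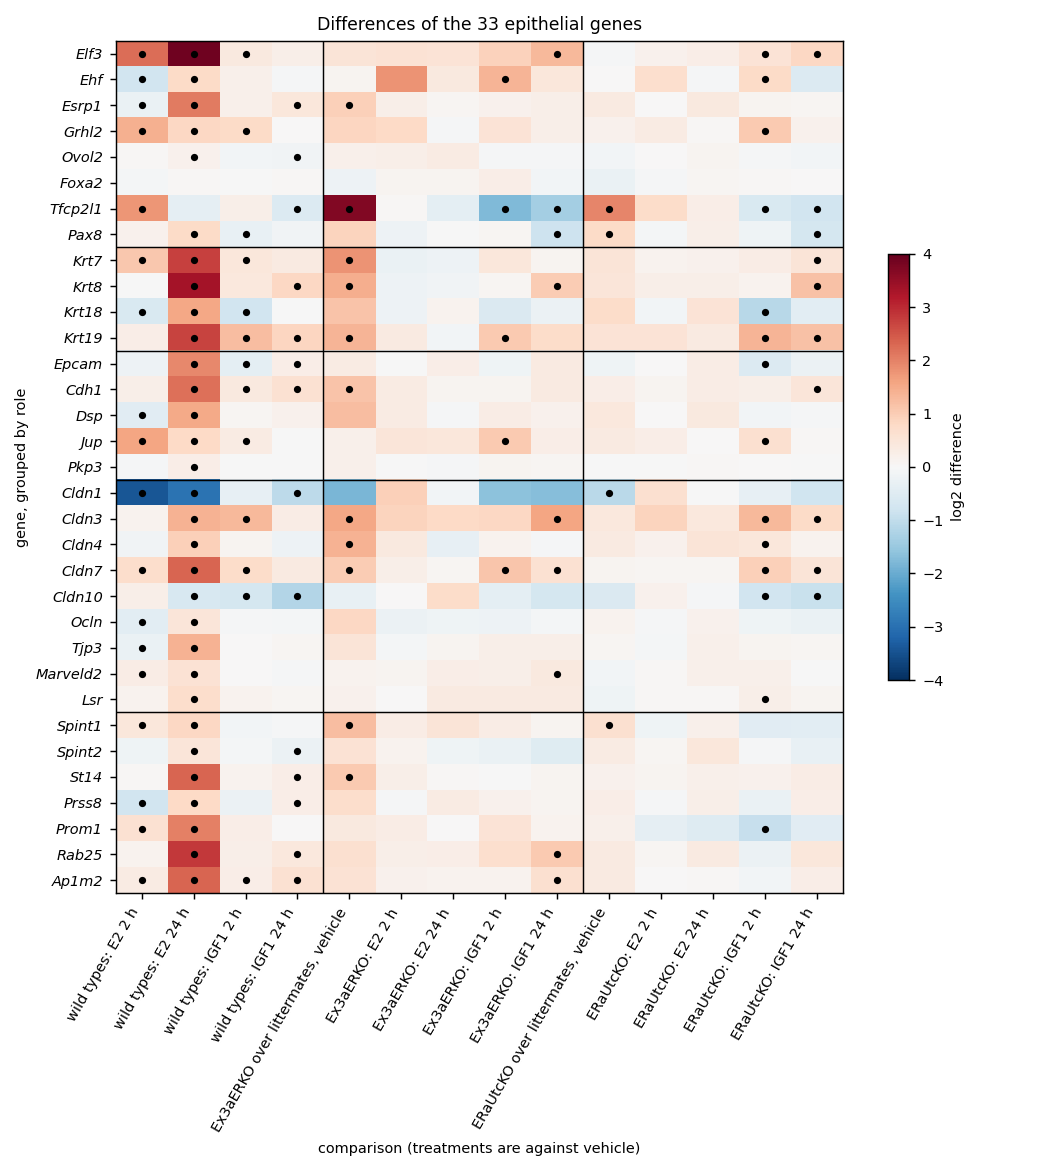
Log2 differences of the 33 genes (rows, by role) in 14 comparisons (columns), on a colour scale centred at 0, with a dot where limma's adjusted p was under 0.05. The column of oestradiol at 24 h in wild types holds 29 rises and 2 falls, and the columns of oestradiol in the 2 knockout lines hold no dot.

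Among the regulators, Elf3 encodes an ETS factor of epithelial differentiation. Over all wild types its level ran from 7.01 to 9.16 in vehicle (median 7.59) and from 10.83 to 12.96 after 24 h of E2 (median 11.51). In C57Bl6 mice the vehicle arrays were at 9.16, 8.76 and 8.98 and the E2 arrays at 12.96, 12.79 and 12.44. In Ex3aERKO littermates they were at 7.04 and 7.01 against 10.83, 11.51 and 11.56. In ERaUtcKO littermates they were at 7.35, 7.54 and 7.64 against 11.22, 11.15 and 11.42. The groups were thus far apart in all 3 sets, and the difference was 3.90 ± 0.14, a 14.9-fold rise (limma, adjusted p = 1.8e-23). Esrp1, a splicing factor that sets epithelial isoforms, rose by 2.07 ± 0.09, from a vehicle range of 8.02 to 9.41 to 10.38 to 11.26. Grhl2 rose by 0.82, Ehf by 0.78 and Pax8, a Müllerian-duct factor, by 0.75. Ovol2, a repressor of mesenchymal genes, rose by 0.16 ± 0.06, but its difference was not positive in all 3 sets, at -0.08 in ERaUtcKO littermates. It was the only one of the 31 called genes whose sign was not shared by the 3 sets, and in C57Bl6 vehicle uteri its level of 6.69 to 6.82 was close to 6.74, the 95th percentile of control probe sets there.

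The 4 keratins form the cytoskeleton of simple epithelia, with KRT8 and KRT18 pairing into one filament. Krt8 had a vehicle range of 10.36 to 11.16 (median 10.94) and an E2 range of 13.35 to 14.74 (median 14.52), a difference of 3.34 ± 0.17 or 10.1-fold (limma, adjusted p = 4.41e-19). In C57Bl6 mice the rise was 2.38, from 10.92, 10.95 and 11.16 to 13.43, 13.39 and 13.35. It was 3.83 in Ex3aERKO littermates and 3.88 in ERaUtcKO littermates, and the difference between sets was not tested. Krt18, the partner, rose less, by 1.54 ± 0.16. Krt7 rose by 2.74 ± 0.16, from 7.27 to 8.33 in vehicle to 10.02 to 11.48. Krt19 rose by 2.71 ± 0.14, from 9.26 to 11.92 in vehicle to 12.74 to 13.83. For each of the 4 keratins every E2 array lay above every vehicle array of its own set, as was so for 16.4% of all genes.

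Adhesion genes rose together. Cdh1, which encodes E-cadherin, went from 10.51 to 12.03 in vehicle to 13.07 to 13.66 after E2, a difference of 2.19 ± 0.12. Epcam, a surface adhesion molecule of epithelia, rose by 1.93 ± 0.11. The desmosomal genes rose less: Dsp by 1.51, Jup by 0.79 and Pkp3 by 0.27. Pkp3 was dim, at 6.54 to 6.62 in C57Bl6 vehicle uteri, below the 6.74 of control probe sets there. All 5 had every E2 array above every vehicle array of the same set, in all 3 sets, as 16.4% of all genes did.

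The tight junction genes split. Cldn7 rose by 2.31 ± 0.15, from 7.57 to 8.56 in vehicle to 9.50 to 11.37. Cldn3 rose by 1.39, Tjp3 by 1.38, Cldn4 by 0.96, Lsr by 0.70, Marveld2 by 0.58 and Ocln by 0.50. The tricellular junction genes Lsr and Marveld2 and the strand protein gene Ocln were thus among the smaller rises. Cldn1 went the other way, from 10.39 to 12.44 in vehicle (median 11.05) to 7.49 to 9.35 after E2 (median 8.28), a fall to 1 part in 7.7 (difference -2.95 ± 0.31, limma, adjusted p = 8.06e-11). No Cldn1 array after E2 reached a vehicle array of any set. Cldn10 fell by 0.64 ± 0.14, from 9.09 to 10.16 in vehicle to 8.31 to 9.38, and in Ex3aERKO littermates 1 E2 array, at 9.38, lay above both vehicle arrays, at 9.11 and 9.09.

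Of the last role, Rab25, a small GTPase of apical recycling, rose by 2.82 ± 0.11, from 8.42 to 9.58 in vehicle to 11.45 to 12.15. St14 (matriptase, a membrane protease) rose by 2.34, Ap1m2 (an epithelial clathrin adaptor subunit) by 2.32 and Prom1 (an apical membrane protein) by 2.01. The matriptase inhibitors Spint1 and Spint2 rose by 0.84 and 0.48, and Prss8 (prostasin, another membrane protease) by 0.79. Across all roles, 27 of the 33 genes had every E2 array above every vehicle array of the same set in all 3 sets, a pattern met by 16.4% of all genes. Cldn1 alone of the 33 was below in all 3 sets, a pattern met by 11.9%. Markers of other tissues moved too: 6 of 8 smooth muscle genes were called higher, 4 of 10 stromal genes higher and 3 lower, 4 of 7 endothelial genes lower, 4 of 8 leukocyte genes lower, 2 of 6 mesothelial genes lower and 5 of 5 liver genes lower (median -2.41), and their part in the rises was not tested. The median rise of the 33 was 1.24 in Ex3aERKO littermates, 0.935 in ERaUtcKO littermates and 0.79 in C57Bl6 mice. Vehicle Alb was at 5.27 to 5.35, 8.68 to 13.3 and 15.66 to 17.53 in these sets. Mouse set and liver RNA cannot be told apart in that comparison.

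**Figure D2:**
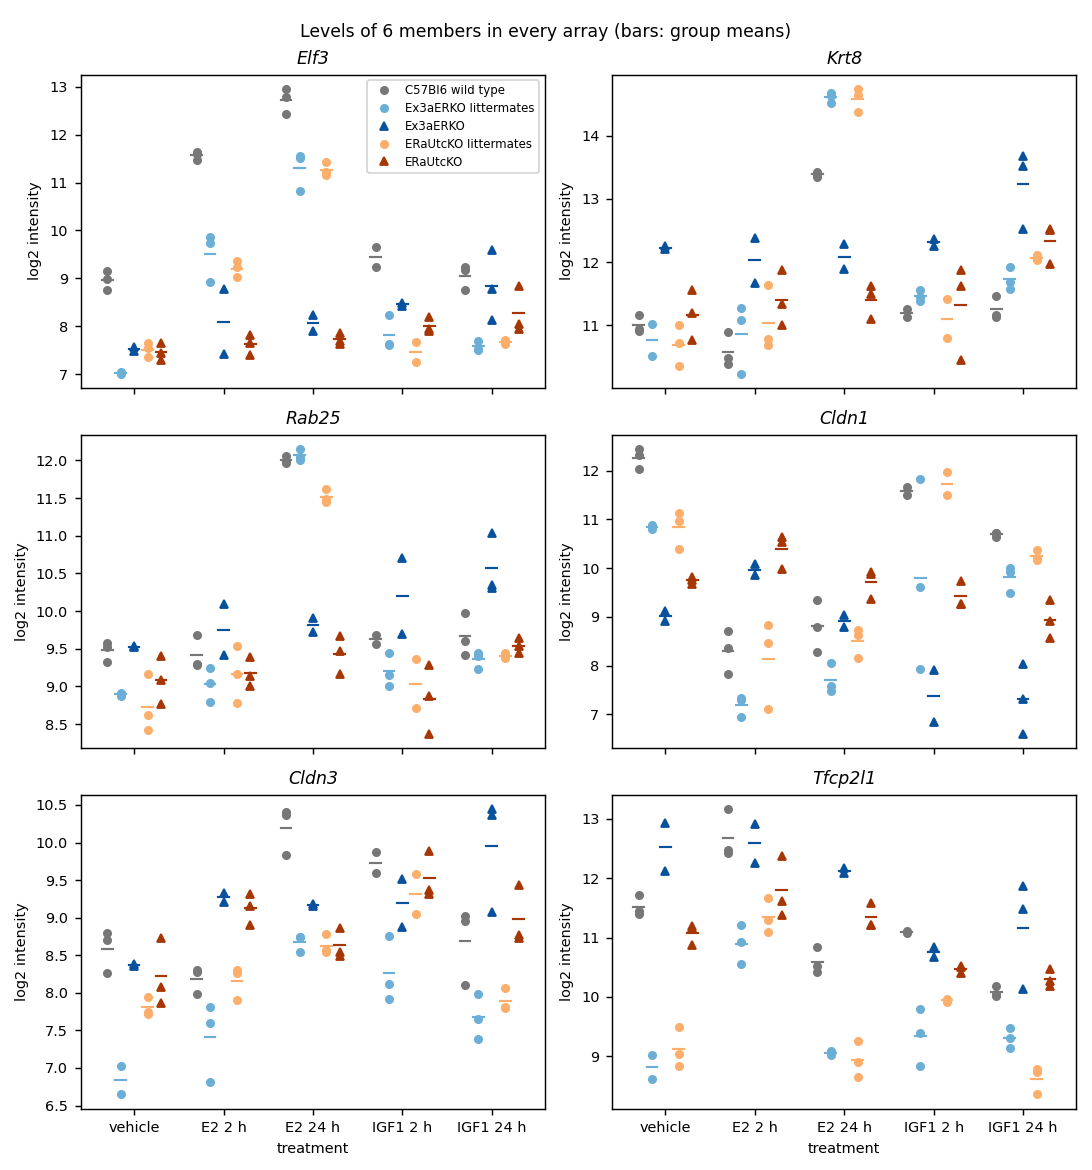
Log2 intensity (vertical axis) of Elf3, Krt8, Rab25, Cldn1, Cldn3 and Tfcp2l1 in every array, by kind of mice and treatment (horizontal axis), 1 point per array. In the 3 wild-type sets Elf3, Krt8 and Rab25 after 24 h of oestradiol lie above the vehicle points of their set and Cldn1 lies below, while in the knockout lines Elf3 after 24 h of oestradiol stays between 7.63 and 8.23.

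At 2 h the picture was mixed. Of the 33 genes, 10 were higher and 8 lower than in vehicle (9 and 8 arrays), where 17.2% and 22.8% of all genes were called, and the median difference was 0.14, against -0.05 for all genes. Elf3, Tfcp2l1, Jup and Grhl2 had risen, and Cldn1 had fallen. By role, 3 of 8 regulators were higher and 2 lower, 1 of 4 keratins higher and 1 lower, 1 of 5 adhesion genes higher and 1 lower, 2 of 9 tight junction genes higher and 3 lower, and 3 of 7 in the last role higher and 1 lower.

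The early risers were led by regulators. Elf3 was at 8.92 to 11.64 (median 9.74) after 2 h, a difference of 2.23 ± 0.14 (limma, adjusted p = 1.65e-16). Tfcp2l1, a grainyhead-related factor, was at 10.55 to 13.16 (median 11.29), against 8.61 to 11.72 in vehicle (median 9.26), a difference of 1.77 ± 0.19. Within each set the Tfcp2l1 groups did not overlap: the C57Bl6 arrays were at 13.16, 12.48 and 12.42 after E2 and at 11.72, 11.40 and 11.45 in vehicle, and both littermate sets were lower throughout, at 10.55 to 11.66 after E2. Grhl2 went from 7.91 to 9.06 in vehicle to 9.28 to 10.34, a difference of 1.43 ± 0.10. Jup, which encodes plakoglobin of desmosomes and adherens junctions, went from 8.68 to 10.38 to 10.29 to 11.87, a difference of 1.59 ± 0.10. Krt7 rose by 1.06, Cldn7 by 0.71, Prom1 by 0.61, Spint1 by 0.46, Ap1m2 by 0.33 and Marveld2 by 0.30.

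Cldn1 was at 6.94 to 8.84 (median 7.82) after 2 h of E2, every array below every vehicle array of its set, a fall to 1 part in 10.6 (difference -3.41 ± 0.31, limma, adjusted p = 2.42e-12). Prss8 fell by 0.76 ± 0.10, with a median of 7.68 against 8.22 in vehicle, and it too was below in every array of all 3 sets. Ehf fell by 0.75 ± 0.18, but unevenly, by 1.30 in C57Bl6 mice, by 0.77 in Ex3aERKO littermates and by 0.15 in ERaUtcKO littermates. Krt18 fell by 0.62 ± 0.16, with a median of 12.04 against 12.31. The other 4 that fell were Dsp (-0.46), Ocln (-0.42), Tjp3 (-0.26) and Esrp1 (-0.26). Of these only Tjp3 was below in every array of all 3 sets. At 2 h, 6 of the 33 genes were above in all 3 sets (11.5% of all genes) and 3 below (11.8%). Markers of other cells moved as well: 9 of 10 stromal genes were lower and 1 higher (median -1.24), 4 of 8 smooth muscle genes higher and 2 lower, 4 of 7 endothelial genes lower, 3 of 5 luminal genes lower and 5 of 5 liver genes lower (median -1.42), and their part was not tested.

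The 24 h arrays were also set against the 2 h arrays directly. At 24 h, 26 genes were higher and 4 lower than at 2 h, where 27.1% and 24.1% of all genes were called. Krt8 was 3.36 ± 0.17 above its 2 h level, Rab25 2.66 ± 0.11, Krt19 2.43 ± 0.14 and Esrp1 2.33 ± 0.09. The 4 that were lower at 24 h than at 2 h were Tfcp2l1 (-2.11 ± 0.18), Cldn10 (-0.88), Jup (-0.80) and Grhl2 (-0.61). Against vehicle, Tfcp2l1 at 24 h differed by -0.93 in C57Bl6 mice, 0.24 in Ex3aERKO littermates and -0.19 in ERaUtcKO littermates. The 2 contrasts against vehicle share the vehicle arrays. Side by side, at 2 h and 24 h, Ehf was at -0.75 and 0.78, Esrp1 at -0.26 and 2.07, Krt18 at -0.62 and 1.54, and Prss8 at -0.76 and 0.79.

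**Figure D3:**
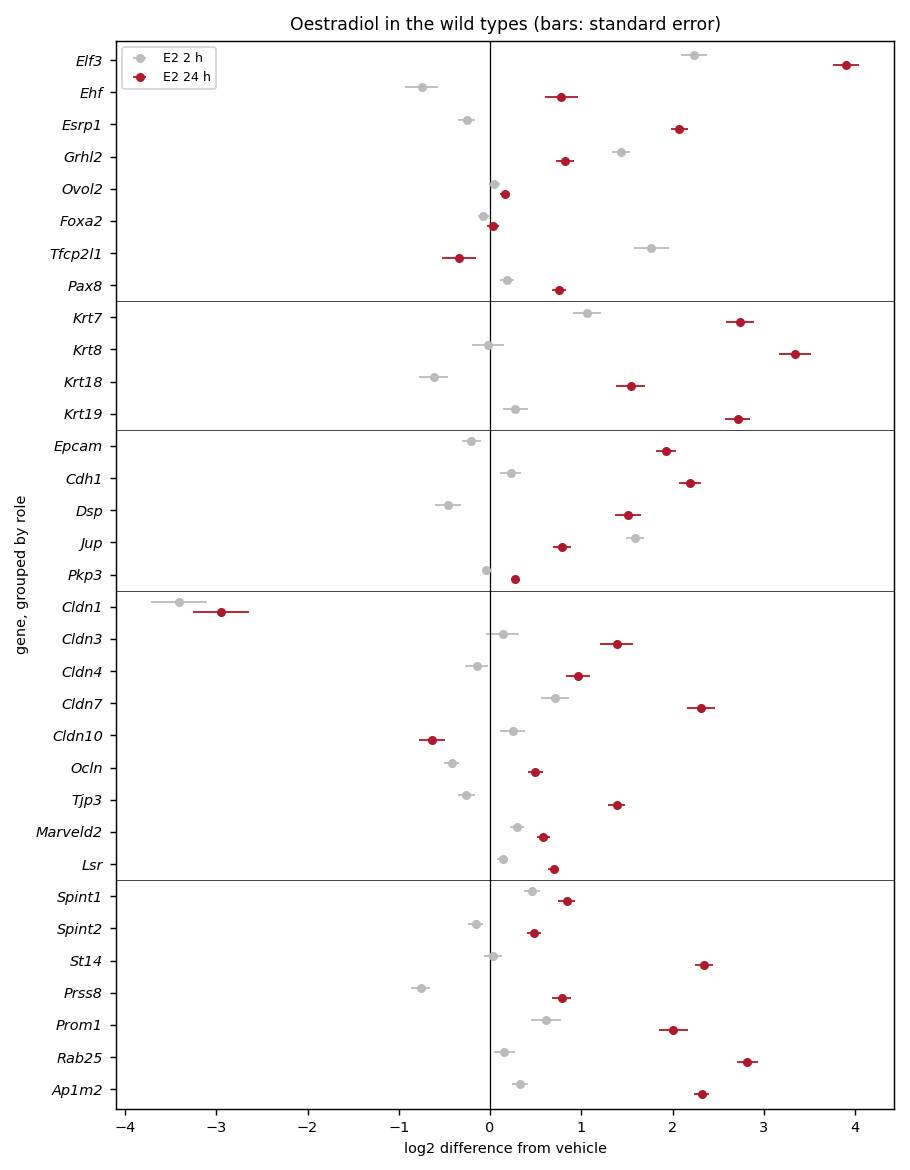
Log2 difference from vehicle in wild types (horizontal axis, bars are 1 SE) for the 33 genes (rows) after 2 h (grey) and 24 h (red) of oestradiol. The 24 h points lie right of 0 for 30 genes, while at 2 h Tfcp2l1, Jup and Grhl2 lie right of their 24 h points.

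IGF1 moved fewer of the genes in wild types, and in both directions. At 2 h, 9 genes were higher and 4 lower than in vehicle (7 and 8 arrays), where 16.9% and 19.0% of all genes were called, and the median difference was 0.13, against -0.04. At 24 h, 9 were higher and 5 lower (9 and 8 arrays), where 19.3% and 21.6% of all genes were called, and the median was 0.06, against -0.06. Cldn3 and Krt19 rose most at 2 h, and Krt19 and Krt8 at 24 h.

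After 2 h of IGF1, Cldn3, a barrier-forming claudin, was at 7.92 to 9.87 (median 9.05), against 6.65 to 8.79 in vehicle (median 7.85), a difference of 1.29 ± 0.19 (limma, adjusted p = 5.76e-07). Krt19 was at 11.06 to 12.69, against 9.26 to 11.92, a difference of 1.23 ± 0.15. Grhl2 rose by 0.77, Cldn7 by 0.73, Krt7 by 0.46, Elf3 by 0.40, Cdh1 by 0.38, Jup by 0.31 and Ap1m2 by 0.28. Cldn3, Krt19, Grhl2 and Cldn7 had every IGF1 array above every vehicle array of the same set in all 3 sets, as 11.1% of all genes did. The rise of Elf3 was seen in C57Bl6 mice (0.48) and Ex3aERKO littermates (0.80), but ERaUtcKO littermates differed by -0.04. Krt18 fell by 0.78 ± 0.17, with falls of 0.77, 0.75 and 0.79 in the 3 sets, while its partner Krt8 was not called. Cldn10 fell by 0.70 ± 0.15, Epcam by 0.41 and Pax8 by 0.31. Cldn1 was not called, and its arrays in Ex3aERKO littermates spread from 7.94 through 9.61 to 11.83. Of other markers, 6 of 8 smooth muscle genes were higher and 1 lower, 4 of 10 stromal genes higher and 2 lower, and 5 of 5 liver genes lower, and their part was not tested.

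After 24 h of IGF1, Krt19 was 0.86 ± 0.14 above vehicle and Krt8 0.83 ± 0.17, with Krt8 arrays at 11.14 to 12.12 against 10.36 to 11.16. Cdh1 rose by 0.60, Ap1m2 by 0.60, Esrp1 by 0.47, Rab25 by 0.43, and Prss8, St14 and Epcam by 0.27, 0.27 and 0.26. Cldn10 fell by 1.17 ± 0.14, from 9.09 to 10.16 to 7.76 to 9.01, and Cldn1 by 1.04 ± 0.31, from 10.39 to 12.44 to 9.50 to 10.72. Both claudins were below every vehicle array of their set in all 3 sets, as 4.92% of all genes were. Tfcp2l1 differed by -0.54 ± 0.19 over all wild types, but by 0.49 in Ex3aERKO littermates, with -1.44 in C57Bl6 mice. Spint2 (-0.24) and Ovol2 (-0.15) were also called lower, and of the 14 called genes 9 had the same sign in all 3 sets, the others being Tfcp2l1, Ovol2, Spint2, St14 and Epcam. The sets went different ways: fitted alone, C57Bl6 mice gave 0 higher and 8 lower (14.4% and 11.5% of all genes), Ex3aERKO littermates 7 and 0 (4.61% and 2.34%), and ERaUtcKO littermates 7 and 2 (16.9% and 23.3%). At 24 h of IGF1, 8 of 8 smooth muscle markers were called higher (median 0.96), 6 of 10 stromal markers higher and 1 lower, and 4 of 6 markers of mesothelium, which also makes keratins, higher (median 0.61). Of the liver markers 5 of 5 were lower (median -2.37). In the Ex3aERKO littermates the mean level of the liver list was 5.02 to 5.20 after IGF1 and 5.08 to 5.21 in vehicle. The part of these markers in the values was not tested.

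Oestradiol and IGF1 were also compared directly. At 24 h, 30 of the 33 genes were higher after E2 than after IGF1 and 1 lower (9 arrays each), where 15.3% and 12.9% of all genes were called, with a median of 1.08 against 0.00 for all genes. Elf3 was 3.66 ± 0.14 higher, Krt8 2.51 ± 0.17, Rab25 2.38 ± 0.11 and Krt7 2.36 ± 0.15 (limma, adjusted p = 7.38e-23 for Elf3). For Elf3 the arrays were at 10.83 to 12.96 after E2 and 7.50 to 9.24 after IGF1. Cldn1 was the gene that was lower, by 1.91 ± 0.30, and Foxa2 and Tfcp2l1 were not called. At 2 h the contrast was balanced, with 9 higher and 9 lower after E2 (9 and 7 arrays), where 9.6% and 12.4% of all genes were called. Elf3 (1.83), Tfcp2l1 (1.55), Jup (1.27) and Cldn10 (0.95) were higher after E2. Cldn3 (-1.15), Ehf (-0.96), Krt19 (-0.95) and Dsp (-0.54) were lower, as was Cldn1.

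In vehicle-treated Ex3aERKO uteri many of the genes stood above their littermates. Of the 33, 11 were called higher and 0 lower (2 arrays each), where 1.56% and 1.40% of all genes were called, and the median difference was 0.70, against 0.02. Tfcp2l1 led, at 12.93 and 12.13 in knockouts against 9.03 and 8.61 in littermates, a difference of 3.71 ± 0.41 (limma, adjusted p = 5.9e-05). Krt7 was at 9.13 and 9.09 against 7.38 and 7.27, a difference of 1.79 ± 0.32. Cldn3 was at 8.39 and 8.36 against 7.03 and 6.65, a difference of 1.54 ± 0.38. Both knockout arrays were above both littermates for each of the 3 genes. Krt8 was higher by 1.46, Cldn4 by 1.40, Krt19 by 1.35, Spint1 by 1.23, Cdh1 by 1.14, St14 by 1.04, Cldn7 by 1.01 and Esrp1 by 0.96. In all, 28 of 33 genes had both knockout arrays above both littermates, as 25% of all genes did, and Foxa2, Cldn1 and Cldn10 had both below, as 21.2% did. With 2 arrays a group, single arrays decided the count: it was 3 without littermate vehicle replicate 2, 2 without littermate vehicle replicate 3 and 1 without knockout vehicle replicate 2. Tfcp2l1 was called in all 25 fits that each left out 1 array.

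Markers of other cells differed beside these values. The mean level of 10 stromal genes was 10.70 to 11 in the 2 knockout arrays and 11.30 to 11.50 in the littermates, with 0 called higher and 1, Hoxa10, lower. That of 8 smooth muscle genes was 12.37 to 13.13 against 13.26 in both littermate arrays, with none called in either direction. That of 7 gland genes was 5.48 to 5.67 against 6.62 to 6.85, with 0 higher and 2 lower, Cxcl15 (-4.55) and Aldh1a1 (-2.87). That of 5 luminal genes was 8.34 to 8.47 against 7.54 to 7.69, with 1, Lpar3, higher by 1.63. Their part in the differences was not tested.

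In vehicle-treated ERaUtcKO uteri, 3 genes were called higher and 1 lower (3 arrays each), where 2.01% and 2.16% of all genes were called, and the median difference was 0.26, against -0.05. Tfcp2l1 was at 10.87, 11.16 and 11.20 in knockouts against 9.04, 8.84 and 9.49 in littermates, a difference of 1.95 ± 0.21 (limma, adjusted p = 4.1e-06). Pax8 was at 8.46, 8.61 and 8.61 against 7.72, 7.72 and 7.95, a difference of 0.76 ± 0.15. Spint1 was at 8.71, 8.99 and 9.42 against 8.43, 8.30 and 8.43, a difference of 0.65 ± 0.19. Cldn1 was at 9.76, 9.68 and 9.81 against 10.39, 10.97 and 11.14, a difference of -1.08 ± 0.31 with an adjusted p of 0.0495 (limma). None of these 4 overlapped between genotypes, and 8 of 33 were above in every array (7.27% of all genes) and 4 below (12.8%). The calls of Tfcp2l1 and Pax8 held in all 29 fits that left out 1 array, and those of Spint1 and Cldn1 did not: 2 genes were called, in place of 4, without any of 14 single arrays. Those 14 were littermate vehicle replicate 2, littermate IGF1 24 h replicates 1, 2 and 3, littermate E2 2 h replicate 2, littermate E2 24 h replicates 1, 2 and 3, knockout vehicle replicates 2 and 3, knockout IGF1 2 h replicates 1 and 2, knockout IGF1 24 h replicate 2 and knockout E2 24 h replicate 2. Gland markers were again lower (0 higher and 2 lower of 7, Cxcl15 at -4.11 and Aldh1a1 at -1.97), at a mean level of 6.40 to 6.79 against 6.97 to 7.63, and their part was not tested. Of 5 liver genes 0 were called, with a median of 1.46, and their part was not tested either. Tfcp2l1 and Spint1 were the 2 genes called higher in both lines, as 0.673% of all genes were. Wild types also differed in Tfcp2l1: C57Bl6 vehicle arrays, at 11.72, 11.40 and 11.45, lay above both littermate sets. This was not particular to Tfcp2l1, as Elf3 was likewise higher in C57Bl6 vehicle arrays. Control probe sets were higher there too, with a median of 4.31 against 3.46 and 3.65 in the Ex3aERKO and ERaUtcKO sets. Line and array set cannot be told apart in that comparison.

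**Figure D4:**
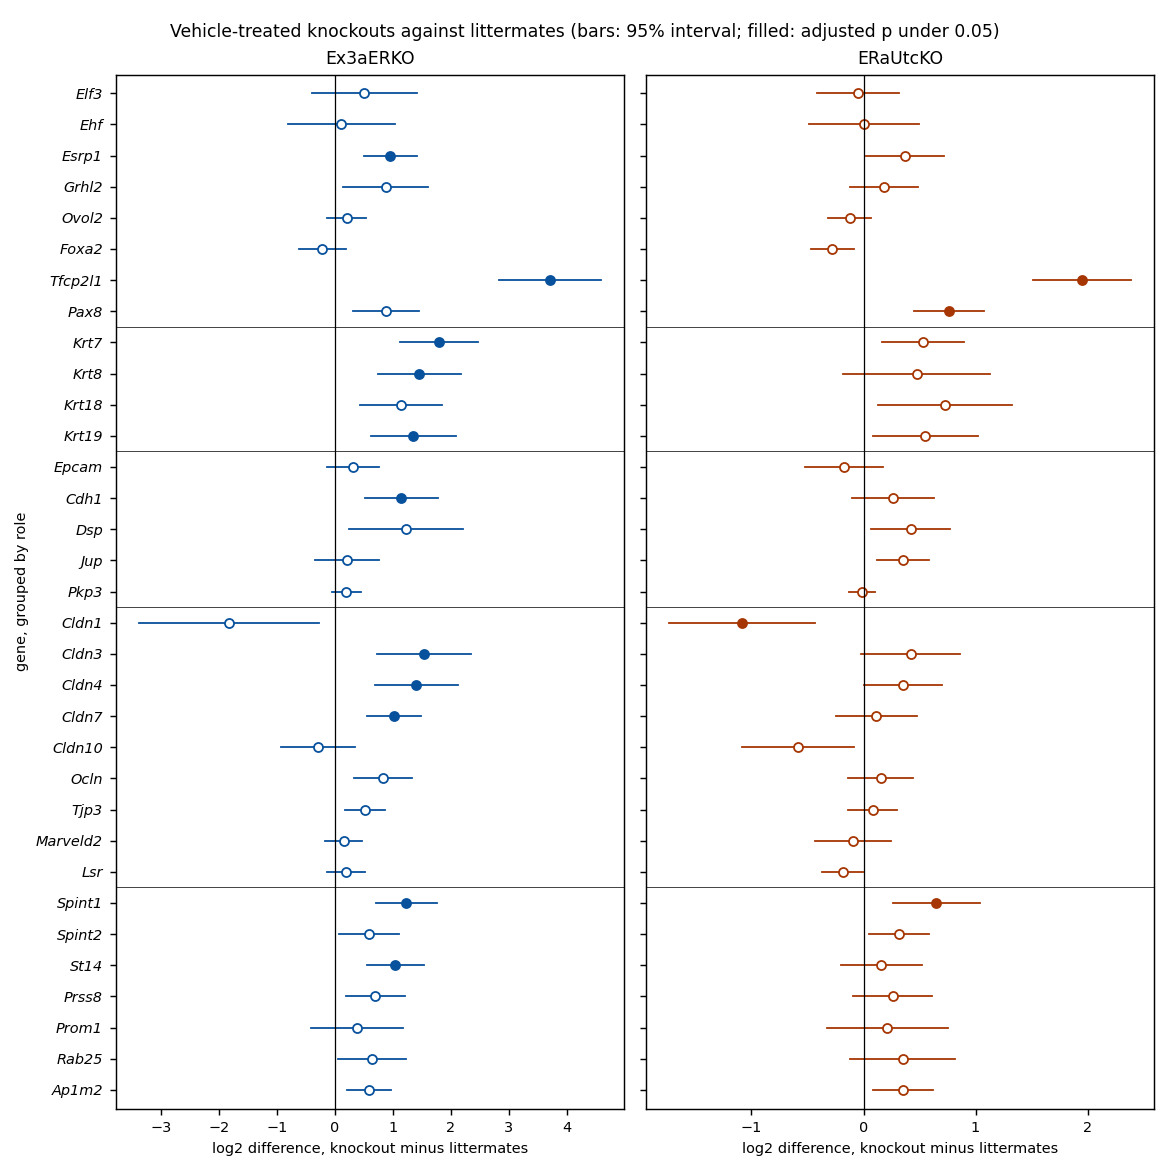
Log2 difference of knockout over littermate in vehicle-treated uteri (horizontal axis, bars are 95% intervals) for the 33 genes (rows), in the Ex3aERKO and ERaUtcKO lines; filled points have adjusted p under 0.05. Tfcp2l1 lies furthest to the right in both lines, at 3.71 and 1.95, and the Ex3aERKO intervals are the wider ones.

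Oestradiol called none of the 33 genes in either knockout line. In Ex3aERKO uteri, 0 genes were called at 2 h and 0 at 24 h (limma; 3 and 3 genes had an unadjusted p under 0.05), where 0.116% of all genes were called higher and 0.0332% lower at 2 h and 0% in both directions at 24 h. In ERaUtcKO uteri the counts were again 0 and 0 (6 and 4 genes at an unadjusted p under 0.05), where 0.398% and 0.0929% of all genes were called at 2 h and 0% at 24 h. The median difference in Ex3aERKO uteri was 0.22 at 2 h and 0.10 at 24 h, against -0.01 and 0.075 for all genes. In ERaUtcKO uteri it was 0.08 and 0.20, against -0.02 and -0.01. Above 0 were 24 and 21 of the 33 in the first line and 24 and 29 in the second. A shift of the list was not tested. Elf3 at 24 h was at 7.91 and 8.23 in Ex3aERKO uteri against 7.57 and 7.49 in vehicle, a difference of 0.54 with a 95% interval of -0.36 to 1.44. In ERaUtcKO uteri it was at 7.63, 7.70 and 7.85 against 7.29, 7.44 and 7.65, a difference of 0.27 with an interval of -0.10 to 0.64. The upper ends of both intervals lie well below the littermate rises of 4.28 and 3.76. Krt8 differed by -0.14 (interval -0.85 to 0.58) and by 0.24 (interval -0.42 to 0.89). Cldn1 at 24 h differed by -0.11 (interval -1.67 to 1.45) and by -0.03 (interval -0.68 to 0.62). Of 5 liver genes 0 were called in ERaUtcKO uteri at 2 h or 24 h, with medians of -1.62 and -1.80, and their part was not tested.

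The genes nearest to a call were at 2 h. Ehf was at 11.89 and 11.32 in Ex3aERKO uteri, against 10.22 and 9.40 in vehicle, a difference of 1.79 with an adjusted p of 0.149 (limma). Cldn3 was at 8.90, 9.32 and 9.15 in ERaUtcKO uteri, against 7.87, 8.08 and 8.73, a difference of 0.90 with an adjusted p of 0.0604 (limma). Both groups were fully above their vehicle arrays. The count in ERaUtcKO uteri at 2 h was 1, in place of 0, without knockout vehicle replicate 3, knockout IGF1 2 h replicate 1 or knockout IGF1 24 h replicate 3.

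The difference in response between genotypes was tested as an interaction. It is the knockout's difference from vehicle minus the littermates'. It is negative where a rise is smaller and positive where a fall is smaller, or where the direction turns. The interaction subtracts the vehicle difference between genotypes described above and uses the same vehicle arrays, so these results are not independent. For E2 at 24 h it was called negative for 15 genes and positive for 1 in the Ex3aERKO line, where 10.5% and 6.34% of all genes were called, with a median of -1.10 against 0.10. In the ERaUtcKO line it was 20 and 1, where 15.5% and 17.3% were called, with a median of -0.76 against 0.13. In littermates alone, E2 at 24 h raised 26 genes and lowered 1 (17.4% and 11.5% of all genes) in the Ex3aERKO set, and raised 28 and lowered 2 (20.4% and 34.2%) in the ERaUtcKO set. Of the 33 genes, 15 were called negative in both lines, as 9.14% of all genes were: Elf3 and Esrp1 among regulators, the 4 keratins, Epcam, Cdh1 and Dsp, Cldn7 and Tjp3, and St14, Prom1, Rab25 and Ap1m2. The interaction was -3.74 ± 0.57 and -3.49 ± 0.25 for Elf3 and -3.97 ± 0.45 and -3.65 ± 0.44 for Krt8 (Ex3aERKO first). It was -3.40 ± 0.43 and -2.94 ± 0.25 for Krt7 and -2.89 ± 0.38 and -2.43 ± 0.32 for Rab25. Cldn1 had the positive interaction in both lines, 3.03 ± 0.99 and 2.30 ± 0.44: it fell by 3.14 and 2.33 in littermates and differed by -0.11 and -0.03 in knockouts. Grhl2, Pax8, Jup, Cldn4 and Lsr were called negative in the ERaUtcKO line and not in the other, and whether the lines differ was not tested. The call of Cldn1 in the Ex3aERKO line was lost in 12 of 25 fits that left out 1 array, with an adjusted p of up to 0.109 (limma). Those 12 were littermate vehicle replicates 2 and 3, littermate E2 2 h replicates 1, 2 and 3, littermate E2 24 h replicates 2 and 3, littermate IGF1 2 h replicate 1, knockout vehicle replicates 2 and 3 and knockout E2 24 h replicates 1 and 3.

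Levels after 24 h of E2 were also compared between genotypes, a contrast that includes any difference already present in vehicle. In the Ex3aERKO line 15 genes were lower in knockouts than in littermates and 3 higher (18.6% and 23.0% of all genes), and in the ERaUtcKO line 23 lower and 2 higher (22.4% and 24.0%). Elf3 was at 7.91 and 8.23 against 10.83, 11.51 and 11.56 in the first, and at 7.63, 7.70 and 7.85 against 11.22, 11.15 and 11.42 in the second. Krt8 was at 11.89 and 12.29 against 14.67, 14.63 and 14.52, and at 11.11, 11.49 and 11.62 against 14.37, 14.64 and 14.74. Tfcp2l1, whose 24 h interaction was not called in either line, was higher in knockouts, by 3.07 ± 0.38 and 2.41 ± 0.21. At 12.09 and 12.17 against 9.09, 9.02 and 9.08, and at 11.59, 11.21 and 11.22 against 9.25, 8.65 and 8.90, its groups did not overlap. In the Ex3aERKO line 19 genes had every knockout array below every littermate (25.3% of all genes) and 5 above (37.5%), and in the ERaUtcKO line 22 (25.7%) and 2 (33.2%). The interaction at 24 h was also negative for 1 of 8 smooth muscle genes in the Ex3aERKO line and 5 of 8 in the ERaUtcKO line, and for 2 and 4 of 10 stromal genes (positive for 1 in each), and their part was not tested. Of 5 liver genes it called 0 in both lines, with medians of 0.27 and -0.47.

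**Figure D5:**
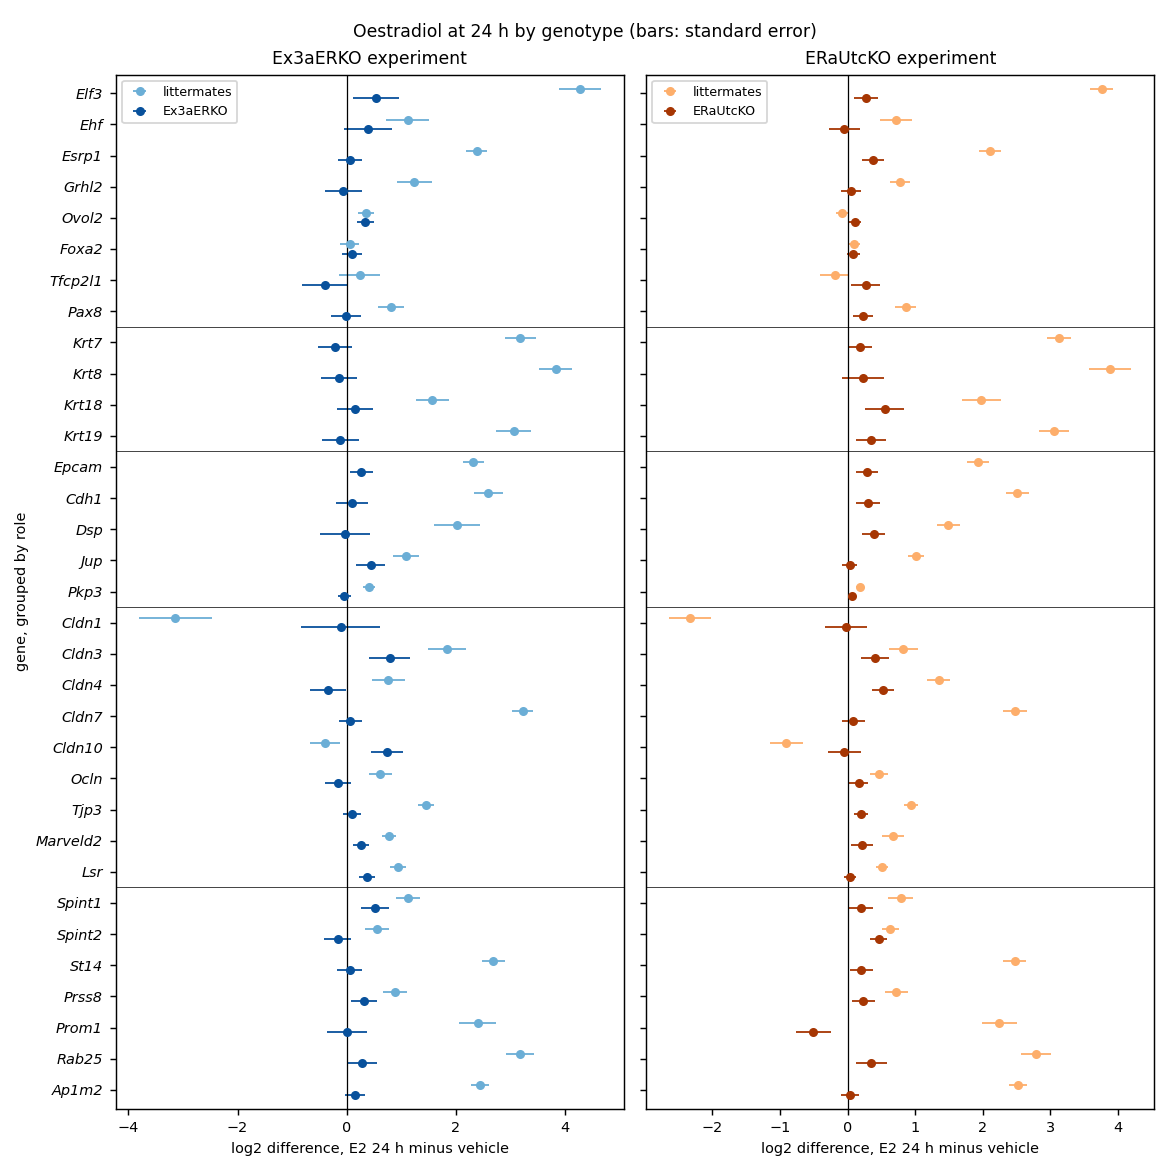
Log2 difference of oestradiol at 24 h over vehicle (horizontal axis, bars are 1 SE) for the 33 genes (rows) in littermates and in knockouts, with 1 panel for each line. Elf3 lies at 4.28 and 3.76 in littermates and at 0.54 and 0.27 in knockouts, and Cldn1 lies at -3.14 and -2.33 in littermates and at -0.11 and -0.03 in knockouts.

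For E2 at 2 h, the interaction was negative for 4 genes and positive for 2 in the Ex3aERKO line (4.85% and 4.58% of all genes), and negative for 7 and positive for 1 in the ERaUtcKO line (7.08% and 6.7%). It was positive for Cldn1 in both, 4.61 ± 0.99 and 3.33 ± 0.44: Cldn1 fell by 3.67 and 2.69 in littermates and differed by 0.95 and 0.64 in knockouts, where it was not called. Its arrays after 2 h were at 9.86 and 10.08 in Ex3aERKO against 7.29, 7.33 and 6.94 in littermates, and at 10.54, 10.64 and 9.98 in ERaUtcKO against 7.11, 8.47 and 8.84. The early risers Elf3 (-1.92 and -1.54), Tfcp2l1 (-2.02 and -1.50), Jup (-1.21 and -1.52) and Krt7 (-1.62 and -1.0) had negative interactions in both lines, as 3.68% of all genes did. Grhl2 (-1.25), Prom1 (-1.09) and Ap1m2 (-0.57) were called in the ERaUtcKO line and Ehf (2.56) in the Ex3aERKO line, where it differed by -0.77 in littermates and by 1.79 in knockouts. In the Ex3aERKO line Cldn1 was called in all 25 fits that left out 1 array. The count of 6 there was 3 without littermate vehicle replicate 2, and 2 without littermate vehicle replicate 3, knockout vehicle replicate 2, knockout vehicle replicate 3 or knockout E2 2 h replicate 3.

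IGF1 called some of the genes in the knockouts. In Ex3aERKO uteri at 2 h, 4 genes were higher and 1 lower (8.61% and 7.09% of all genes), together near the share of all genes. Ehf was at 11.79 and 10.57 against 10.22 and 9.40 in vehicle, a difference of 1.37 ± 0.43. Cldn7 was at 9.85 and 9.72 against 8.78 and 8.59, a difference of 1.10 ± 0.22, and Krt19 and Jup rose by 1.04 and 1.03. Tfcp2l1 fell by 1.77 ± 0.41, from 12.93 and 12.13 to 10.85 and 10.68. At 24 h, 7 were higher and 2 lower (11.7% and 6.86% of all genes). Cldn3 was at 10.36, 9.08 and 10.44 against 8.39 and 8.36, a difference of 1.58 ± 0.35, and Elf3 was at 8.77, 8.13 and 9.60 against 7.57 and 7.49, a difference of 1.30 ± 0.39. Rab25 rose by 1.04, Krt8 by 1.01, Ap1m2 by 0.65, Cldn7 by 0.60 and Marveld2 by 0.40, while Tfcp2l1 fell by 1.37 and Pax8 by 0.83. The counts rest on few arrays: at 2 h the 5 calls became 2 without knockout vehicle replicate 2, 3 without knockout vehicle replicate 3 and 2 without knockout IGF1 2 h replicate 1. At 24 h the 9 became 1 without knockout vehicle replicate 2, 4 without knockout vehicle replicate 3 and 5 without knockout IGF1 24 h replicate 3. Of other markers, 3 of 8 smooth muscle and 2 of 5 luminal genes were higher and 2 of 10 stromal genes lower at 2 h. At 24 h, 5 of 10 stromal genes were higher and 1 lower, 1 of 8 smooth muscle genes higher and 1 of 6 mesothelial genes lower, and their part was not tested.

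In ERaUtcKO uteri at 2 h of IGF1, 9 genes were higher and 5 lower (13.1% and 16.2% of all genes). Krt19 was at 11.94, 12.15 and 11.23 against 10.13, 10.53 and 10.57 in vehicle, a difference of 1.36 ± 0.22. Cldn3 was at 9.89, 9.37 and 9.31 against 7.87, 8.08 and 8.73, a difference of 1.30 ± 0.21, and Grhl2 rose by 1.04 ± 0.15. No IGF1 array of Krt19 or Cldn3 reached down to a vehicle array. Krt18 was at 12.35, 12.55 and 11.74 against 13.01, 13.44 and 13.52, a difference of -1.11 ± 0.29. Prom1 fell by 0.93, Cldn10 by 0.77, Tfcp2l1 by 0.60 and Epcam by 0.55. At 24 h, 7 were higher and 3 lower (16.9% and 15.5% of all genes), together near the share of all genes. Krt19 was at 11.49, 11.72 and 11.57, a difference of 1.19 ± 0.22, and Krt8 at 11.97, 12.51 and 12.52 against 10.77, 11.19 and 11.56, a difference of 1.16 ± 0.31. Elf3 rose by 0.82, Cldn3 by 0.75, Krt7 and Cldn7 by 0.52 each and Cdh1 by 0.50, while Cldn10 fell by 0.89, Tfcp2l1 by 0.77 and Pax8 by 0.69. The 14 calls at 2 h became 9 without knockout vehicle replicate 3, and the 10 at 24 h became 6 without knockout IGF1 24 h replicate 3. Of other markers, 5 of 8 smooth muscle and 3 of 5 luminal genes were higher at 2 h, with 3 of 10 stromal genes higher and 2 lower and 1 of 7 endothelial genes higher and 3 lower. At 24 h, 8 of 8 smooth muscle genes, 7 of 10 stromal genes (1 lower) and 4 of 6 mesothelial genes were higher and 4 of 5 liver genes lower. The mean level of the mesothelial list was then 9.83 to 10.39, against 9.0 to 9.35 in vehicle, and that of smooth muscle 14.32 to 14.76, against 12.95 to 13.46, and their part was not tested.

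The response to IGF1 was not shown to differ between genotypes for most of the genes. The interaction called 0 genes in the Ex3aERKO line at 2 h and at 24 h and 0 in the ERaUtcKO line at 24 h (limma; 2, 2 and 5 genes at an unadjusted p under 0.05). Of all genes it called 0% in the Ex3aERKO line at 2 h, 0% positive and 0.0133% negative at 24 h, and 0.0133% positive and 0.0365% negative in the ERaUtcKO line at 24 h. In the ERaUtcKO line at 2 h it called 0 genes positive and 1 negative (0.332% and 0.179% of all genes). That gene was Tfcp2l1, which moved in opposite directions, up by 0.82 in littermates and down in knockouts (-0.60). It was at 9.92 and 9.97 in littermates against 9.04, 8.84 and 9.49 in vehicle, and at 10.50, 10.53 and 10.41 in knockouts against 10.87, 11.16 and 11.20, an interaction of -1.41 ± 0.32. Without any 1 of 10 arrays the count was 0: littermate vehicle replicates 1 and 2, littermate IGF1 2 h replicates 1 and 2, littermate IGF1 24 h replicate 1, littermate E2 24 h replicate 3, knockout vehicle replicate 3 and knockout IGF1 2 h replicates 1, 2 and 3. It was 2 without knockout IGF1 24 h replicate 2, and without knockout vehicle replicate 2 Prom1 was called in place of Tfcp2l1.

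Other epithelial genes were counted from lists outside the 33. In wild types at 24 h of E2, 24.5% of all genes were called higher and 31.7% lower. There, 21 of 24 other surface and traffic genes were higher and 1 lower, with a median of 1.04. The mucins led, Muc1 at 4.43 ± 0.14 and Muc4 at 4.13 ± 0.10. Of 17 other keratin and desmosome genes 10 were higher and 0 lower, led by Krt5 (3.94 ± 0.94) and Krt14 (2.60 ± 0.55), keratins of stratified epithelium. Of 22 other junction and polarity genes 11 were higher and 4 lower, with Cldn23 (0.97) and F11r (0.71) up and Tjp1 (-0.86), the scaffold ZO-1, and Cldn8 (-0.61) down. Of 12 other epithelial regulators 3 were higher, near the share of all genes, and 1 lower, with Esrp2 (0.45) and Pax2 (0.34) up and Sox17 (-0.41) down. Of 8 mesenchymal genes and repressors 3 were higher, among them Fn1 (1.59) and Vim (0.95), and 5 lower, among them Zeb1 (-0.56) and Twist2 (-0.64). Of 7 gland genes 1 was higher, Sox9 (1.43), and 4 lower, and of 5 luminal genes 1 was higher, Ltf (3.87), and 2 lower, Wnt7a (-0.81) and Calb1 (-0.54).

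In the knockouts the surface genes were called mostly in one direction. The E2 interaction at 24 h was negative for 16 of 24 in the Ex3aERKO line and 18 of 24 in the ERaUtcKO line, and positive for 0 in both, with Muc1 at -3.91 ± 0.51 and -4.50 ± 0.32. Of the 17 other keratin and desmosome genes 4 and 8 had negative interactions. Of the 22 other junction genes 7 were negative and 0 positive in the Ex3aERKO line, and 3 and 2 in the ERaUtcKO line. Of all genes, 10.5% and 15.5% were called negative in the 2 lines and 6.34% and 17.3% positive. In vehicle, 9 of 24 surface genes and 6 of 22 junction genes were higher in Ex3aERKO uteri and 0 lower, and in ERaUtcKO uteri 3 and 1 were higher and 1 and 0 lower. Of all genes, 1.56% were higher and 1.40% lower in Ex3aERKO uteri, and 2.01% and 2.16% in ERaUtcKO uteri. The regulators Pax2 and Klf5 and the plakin Ppl were higher in both lines in vehicle, by 1.76 and 1.13, by 1.45 and 1.11, and by 2.08 and 1.44.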

How the data were processed

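Uterine RNA was labelled with the Affymetrix WT Plus kit and hybridised to 1-colour arrays, per the labels' protocols. The authors deposited 1 table of log2 intensity values for 72688 probe sets in 68 arrays; the normalization is not given in these sources. Probe sets with exactly 1 symbol (30604 of 32750 annotated) were kept, symbols were updated to RefSeq names, and the probe set with the highest mean stood for a gene, giving 30142 genes. Differences were fitted with limma 3.58.1 (R 4.3.3), without further scaling, in 3 fits: 42 wild-type arrays with terms for treatment and for set (35 residual degrees of freedom), 25 arrays of the Ex3aERKO line with littermates (15) and 29 of the ERaUtcKO line with littermates (19). P-values are two-sided, adjusted by Benjamini-Hochberg over all 30142 genes, with a threshold of 0.05. Errors are limma standard errors. The procedure was tested on simulated data. Arrays have no read depth, so their number limits the precision. Labels give replicates but not whether each is a separate mouse, so the spread may be in part technical. Same-numbered arrays did not deviate together and were not paired.

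Every gene of the list is described. Values in every array, or ranges in large groups, are given for some of the largest changes and some genes moving against the majority. Up to 2 rises and falls are named from each other list. The list, its roles and the other lists were chosen with earlier results of these data known. Alternatives changed the scaling, the filter on dim genes, the probe set choice, the variance model, the replicate block, the samples fitted together and each array in turn.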

Additional observations from a re-analysis of the deposited data

Results flagged for a closer look

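The response to treatment differed between genotypes, by the interaction test (limma, adjusted p under 0.05), in 5 comparisons. For oestradiol at 24 h it did so for 16 of the 33 genes in the Ex3aERKO line and for 21 in the ERaUtcKO line. Krt8 (-3.97 and -3.65) and Elf3 (-3.74 and -3.49) were furthest from 0. Of all genes, 10.5% and 15.5% were called negative in these lines and 6.34% and 17.3% positive. For oestradiol at 2 h the response differed for 6 genes in the Ex3aERKO line and 8 in the ERaUtcKO line, with Cldn1 (4.61 and 3.33) furthest. Of all genes, 4.85% and 7.08% were called negative there and 4.58% and 6.7% positive. The count of 6 became 2 or 3 without any 1 of 5 single arrays. For IGF1 at 2 h it differed for 1 gene in the ERaUtcKO line, where 0.179% of all genes were called negative and 0.332% positive. That gene was Tfcp2l1 (-1.41 ± 0.32), a call lost in 11 of 29 fits that each left out 1 array.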

How the results depend on the processing

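The rises after oestradiol at 24 h in wild types, with 30 to 32 of 33 genes called without any 1 array, and their interactions with genotype in both lines, with 13 to 18 (Ex3aERKO) and 20 to 24 (ERaUtcKO) called, stayed within 1.5 times the reported counts under every alternative run. Alternatives that centred array medians, left out dim genes, took the lowest probe set or another variance model, quantile-normalized, added the replicate block or fitted all 68 arrays together reversed no gene; the reversals came from mouse sets fitted alone, and the cause was not tested. Replicate numbers did not pair the arrays (median correlation of same-numbered deviations -0.14 to 0.01 over the 5 kinds of mice). With the replicate block 3 genes were called for IGF1 at 2 h in Ex3aERKO, 1 for oestradiol at 2 h in ERaUtcKO and 0 for the ERaUtcKO interaction with IGF1 at 2 h, and no other count of calls moved by over 1.5 times. Array number and probe signal over background limit the precision, above all for vehicle Ex3aERKO (2 against 2 arrays) and for the dim genes Pkp3, Ovol2 and Foxa2.

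Fitted alone, C57Bl6 mice reversed the median at 2 h of oestradiol (-0.056) and of IGF1 (-0.024), moved those at 24 h to 0.79 (oestradiol), -0.094 (IGF1), 1.24 (oestradiol over IGF1) and 1.18 (24 h over 2 h of oestradiol), and gave 8 calls for IGF1 at each time (4 higher and 4 lower, then 0 and 8). Ex3aERKO littermates gave 10 calls for oestradiol at 2 h, 7, all higher, for IGF1 at 24 h and 9 for oestradiol over IGF1 at 2 h, with medians of 1.24 (oestradiol at 24 h), 0.25 and 0.29 (IGF1 at 2 h and 24 h) and 0.94 (oestradiol over IGF1 at 24 h). ERaUtcKO littermates gave 5 and 9 calls for IGF1 at 2 h and 24 h and 10 for oestradiol over IGF1 at 2 h, with medians of 0.12 (oestradiol over IGF1 at 2 h), 0.92 (the same at 24 h) and 1.11 (24 h over 2 h of oestradiol). Quantile normalization gave medians of 1.27 (24 h over 2 h) and -0.84 (Ex3aERKO interaction with oestradiol at 24 h), 3 calls for IGF1 at 2 h in Ex3aERKO and 1 for oestradiol at 2 h in ERaUtcKO; leaving out dim genes also gave 1 there. Fitting all 68 arrays gave 19 calls for vehicle Ex3aERKO (18 higher and 1 lower), 1 and 8 for oestradiol and IGF1 at 2 h in Ex3aERKO, 1 each for the Ex3aERKO interactions with IGF1 at 2 h and 24 h, and 0 for the ERaUtcKO one at 2 h, as did centring. Reversed genes were Ovol2 at 24 h of oestradiol (-0.076) and Elf3 at 2 h of IGF1 (-0.039) in ERaUtcKO littermates, and at 24 h of IGF1 Grhl2 (-0.30), Epcam (-0.031) and St14 (-0.094) in C57Bl6 mice, Ovol2 (0.021) and Tfcp2l1 (0.49) in Ex3aERKO littermates and Spint2 (0.007) in ERaUtcKO littermates.

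Leaving out 1 array at a time gave, in the Ex3aERKO line, 1 to 13 calls and medians of 0.53 to 0.93 in vehicle, medians of -0.12 to 0.47 for oestradiol at 2 h in knockouts, 2 to 6 and 1 to 9 calls for IGF1 at 2 h and 24 h, and for the interactions 2 to 7 calls and medians of -0.22 to 0.26 (oestradiol at 2 h) and medians of -1.40 to -0.96 (24 h). In the ERaUtcKO line it gave 2 to 5 calls and medians of 0.11 to 0.32 in vehicle, 0 to 1 calls for oestradiol at 2 h and medians of 0.066 to 0.31 at 24 h, 9 to 15 and 6 to 12 calls for IGF1 at 2 h and 24 h, and for the interactions medians of -0.90 to -0.66 (oestradiol at 24 h), 0 to 2 calls and medians of -0.24 to 0.057 (IGF1 at 2 h) and medians of -0.22 to 0.029 (IGF1 at 24 h).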
